A study of Mus musculus with 6 samples.

Results

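The dystrophin-glycoprotein complex genes examined here are Dmd, Utrn, Dag1, Sgca, Sgcb, Sgcd, Dtna and Sspn, followed on mouse promoter arrays after precipitation of tagged TEAD4 from differentiated muscle cells. A gene was counted as a member where at least 1 non-control probe of either array design carried its symbol in the deposited annotation. Of the 8 genes, 7 had probes. Sgcd had none and was skipped. The 7 genes held 251 of the 471870 probes kept, and were 7 of 16814 genes with a probe.

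The dystrophin-glycoprotein complex spans the muscle membrane and joins the actin cytoskeleton inside the fibre to laminin in the basement membrane outside. Dystrophin or its homologue utrophin forms the cytoskeletal end, dystroglycan crosses the membrane, the sarcoglycans and sarcospan stabilise it, and dystrobrevin and the syntrophins attach on the cytoplasmic side. Loss of dystrophin, or of a sarcoglycan, causes muscular dystrophy. TEAD4 belongs to the TEAD transcription factors, whose members recognise the MCAT element of many muscle promoters.

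The samples were C2C12 cells, a mouse myoblast line that forms myotubes when serum is withdrawn. Cells of the TEAD4 group carried a retroviral vector for Flag-HA-tagged TEAD4, and control cells carried the empty vector. Both were puromycin-selected infected populations, differentiated for 5 days in 2% horse serum and fixed for 10 min in 0.4% formaldehyde. There were 2 TEAD4 samples and 1 control sample, each hybridised to both of the 2 array designs, 6 arrays in all, with DNA from the anti-Flag precipitation (IP) in Cy5 and input DNA in Cy3. The antibody recognises the tag on the vector-encoded protein, so the cells' own TEAD4 was not assayed. The labels call the TEAD4 samples duplicates without saying that they were separate cultures. Every p-value below rests on the spread between them, mostly as pooled over all windows of a design, and that spread may be technical. The C2C12 identity could not be checked against markers, because genomic DNA was measured.

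Values are log2 IP/input, set to 0 at the median of each array, so that 1 is 2-fold above the array's median ratio. A window groups 1 central probe and those whose midpoints lie up to 500 bp from it, 3 or more probes in all; its value is their mean, and adjacent windows share probes. Each is named by the distance of its central probe from the annotated start. The members had 239 of 428020 windows. Coordinates are those of the array annotation, and its build is not given here.

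The control sample differed from the TEAD4 samples over the whole array. Its window values had an SD of 1.04, against 0.38 and 0.40 in the TEAD4 samples, and a median of 0.26 against -0.01 in each. Its median IP signal was 1.84 and 2.04 times background on the 2 designs, against 3.63 to 5.41 times in the TEAD4 samples. The scanner software replaced 5.48% and 4.30% of its IP signals by a surrogate near the detection limit, against at most 0.143% in the TEAD4 samples. Before centring, its median log10 ratio was -0.19 and -0.17 on the 2 designs, against -0.005 to 0.003 in the TEAD4 samples. Centring therefore raised the control's values and left those of TEAD4 nearly unchanged. Only the control arrays were extracted with the extended dynamic range setting, per the file headers, so that setting, the scan and the group cannot be told apart. The part of these differences in the comparisons with the control was not tested.

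Relative to input, the members divided evenly. Using limma with Benjamini-Hochberg adjustment over all 16511 genes with a window, 3 of 7 members were higher in TEAD4 than input, Dtna (adjusted p = 0.00118), Dag1 (0.0137) and Sspn (0.0413). Over all genes 23.9% were called higher. Another 3 of 7 were lower, Dmd (limma adjusted p = 0.00252), Sgcb (0.0169) and Utrn (0.0404), where 11.8% of all genes were called lower. Sgca passed in neither direction (limma adjusted p = 0.733), so that 6 of 7 were called, against 35.7% of all genes. With normexp background correction the calls of Dag1 (limma adjusted p = 0.0808), Dmd (0.465), Sgcb (0.136) and Utrn (0.998) were lost, and with at least 5 probes per window those of Sspn (0.057), Sgcb (0.0837) and Utrn (0.305). None of the 7 had a window that was enriched 2-fold or more against input in both TEAD4 samples, as 5.2% of genes had, and none met it together with a 2-fold excess over the control, which 2.56% of genes did. In the control sample, by contrast, a window of that size was found in 7 of 7 members, where 85.6% of all genes had one.

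Seen window by window, with limma p-values adjusted over all windows of both designs, 30 of the 239 member windows (12.6%) were higher than input, against 6.59% of all windows. They belonged to Dag1 (15), Dtna (13) and Sspn (2). A further 21 windows (8.79%) were lower, against 3.66% of all windows, and these belonged to Dmd (10), Sgcb (6), Dtna (4) and Utrn (1). Windows of Dmd, Sgcb and Utrn gave no call above input, those of Dag1 and Sspn none below it, and Dtna had calls of both signs.

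The comparison with the control gave another order. By the window of lowest p, 0 of 7 members were higher in TEAD4 than in the control (12.4% of all genes) and 7 of 7 were lower (81% of all genes; 93.4% were called in either direction), by limma with adjusted p-values from 4.01e-06 for Dag1 to 0.00806 for Sgca. That direction was the sign of 1 window per gene: Utrn had 10 windows higher than the control and 1 lower, and Dtna 18 and 3. It also changed with the settings. With loess within each array 5 members were higher and 2 lower (26.5% and 64.5% of all genes). With 1000 bp windows 3 were higher and 4 lower (15% and 75.4% of all genes). With all arrays brought to a common median absolute deviation none was called in either direction (0.763% and 0.176% of all genes). At the level of windows, 37 member windows (15.5%) were higher than the control and 67 (28%) were lower, against 11.6% and 33.5% of all windows. Under loess the counts were 47 and 47, against 14.9% and 23.8% of all windows. With a common deviation they were 0 and 0, against 0.153% and 0.0593% of all windows.

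The cytoskeletal anchors came first in this order of roles. Dmd encodes dystrophin, which binds actin and dystroglycan. Its 29 probes all lay inside the gene, on the X chromosome, 537518 to 544359 bp from the annotated start, and none lay near that start. The measurements on Dmd therefore describe a stretch far from that start. RefSeq lists 2 Dmd starts, and the probes were not tied to either.

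Within that stretch, both TEAD4 samples were below 0 in 17 of 28 windows and both above it in 0. The lowest window, at 541233 bp, measured -0.83 and -0.98 in the TEAD4 samples and -0.65 in the control, and it was lower than input (limma adjusted p = 0.00177). All 3 samples were low there, and the difference of TEAD4 from the control did not pass the threshold (-0.26, SE 0.26, limma adjusted p = 0.431). At the near end of the stretch, at 537640 bp, the TEAD4 samples measured 0.13 and -0.03 and the control 1.48. The control was the high sample there and the TEAD4 samples lay near the array median (difference -1.43, SE 0.26, limma adjusted p = 0.000428). Dmd had the lowest top window of the members, 0.08 ± 0.30 (SD, n = 2) at 543070 bp, where its TEAD4 samples measured -0.13 and 0.29 and the control -0.86. Only 10.4% of genes had a lower top window.

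Utrn encodes utrophin, the homologue that takes dystrophin's place at the membrane in early development and at the neuromuscular junction. Its 34 probes on chromosome 10 ran from -5349 to 2512 bp. The start-site value, the mean over probes within 1000 bp of the start, was -0.16 and -0.21 in the TEAD4 samples, -0.18 ± 0.03 (SD, n = 2), and -0.36 in the control. All 3 samples were below 0, and the TEAD4 mean exceeded that of only 12% of the 15836 genes with such a value.

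Both TEAD4 samples were below 0 in 26 of 30 windows of Utrn. The call below input rested on 1 window, at -3331 bp, with -0.82 and -0.55 in the TEAD4 samples and -1.15 in the control (limma adjusted p = 0.0113). Its call as a gene was lost under 6 of the 9 alternatives that have a test, with limma adjusted p between 0.0406 and 0.998 over all 9. Relative to the control the order was the other way. Between -3203 and -1003 bp, 10 windows were higher in TEAD4 than in the control (33.3% of its windows), and the control was lower still than TEAD4 in each. In the top window, at -1003 bp, TEAD4 measured 0.09 and 0.12, 0.11 ± 0.02 (SD, n = 2), and the control -0.81 (difference 0.91, SE 0.26, limma adjusted p = 0.0093). Under loess 9 windows were higher than the control, and with a common deviation none was.

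The RefSeq promoter of Utrn is shown because this member was low in every sample. It is from GRCm38.p6, chr10:12861686-12861985, minus strand, from 250 bases before the start to 50 after it, and it has a GC content of 46%. The start it surrounds need not be the one from which the array's distances run.
Utrn: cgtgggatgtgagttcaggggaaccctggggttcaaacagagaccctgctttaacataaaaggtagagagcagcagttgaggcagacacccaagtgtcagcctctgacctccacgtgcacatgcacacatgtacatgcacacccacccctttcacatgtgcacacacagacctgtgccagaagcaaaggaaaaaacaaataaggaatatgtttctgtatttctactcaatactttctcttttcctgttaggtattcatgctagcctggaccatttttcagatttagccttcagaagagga

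Dag1 encodes the precursor that is cleaved into alpha- and beta-dystroglycan, the laminin receptor of the complex. Its 28 probes on chromosome 9 ran from -5103 to 2308 bp, and 15 of its 26 windows were higher than input, a share of 57.7%, with none lower. The start-site value was 0.38 and 0.78 in the TEAD4 samples, 0.58 ± 0.28 (SD, n = 2), higher than in 92.4% of genes. The control measured 1.54 there, above both TEAD4 samples and higher than in 77% of genes. Over the 3 probes within 500 bp TEAD4 measured 0.30 and 0.23 and the control 2.69. With normexp the control lay between the TEAD4 samples (0.55 against 0.44 and 0.68), as with a common deviation (0.68 against 0.58 and 1.16).

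Along Dag1 the 3 samples had different shapes. The 9 windows farthest upstream were below 0 in both TEAD4 samples. From -1311 to -711 bp TEAD4 sample 2 stood apart from the others. The top window, at -909 bp (chromosome 9, bases 108122322 to 108123178), measured 0.33 in sample 1, 1.33 in sample 2 and 0.14 in the control, a TEAD4 mean of 0.83 ± 0.71 (SD, n = 2). Sample 1 and the control lay closer to each other than the TEAD4 samples did. TEAD4 was higher than input (SE 0.20, resting mostly on the spread pooled over windows, limma adjusted p = 0.0157). Its difference from the control did not pass the threshold (0.69, SE 0.34, limma adjusted p = 0.112). Sample 2 was the higher of the pair in 23 of the 26 windows. Taken alone it put 6 Dag1 windows at 2-fold over input, and sample 1 alone put 0.

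Over the start itself the control was the high sample. At 195 bp TEAD4 measured 0.36 and 0.41 and the control 3.12, the highest control value in any window of the members (difference -2.73, SE 0.26, limma adjusted p = 4.01e-06 for the gene). Farther into the gene the order turned. At 1500 bp TEAD4 measured 0.62 and 0.88 and the control -0.89, with no overlap, and TEAD4 was higher than input (limma adjusted p = 0.00659) and higher than the control (difference 1.64, SE 0.26, limma adjusted p = 0.000156). The 3 windows higher than the control lay at 1229, 1500 and 1646 bp, and the control was below 0 in each. Both the count of 15 over input and the count of 3 over the control were the same under loess. With normexp background correction they were 2 and 0, and with a common deviation 15 and 0.

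The promoter of Dag1 is shown for the member with most windows above input. It is 1 of 2 in the RefSeq table, whose starts lie 143 bases apart (GRCm38.p6, chr9:108263909-108264208, minus strand), and its GC content of 69.7% is above that of 89.9% of promoters. Both motifs searched, GGAATG and CAGCTG, are absent from it on both strands.
Dag1: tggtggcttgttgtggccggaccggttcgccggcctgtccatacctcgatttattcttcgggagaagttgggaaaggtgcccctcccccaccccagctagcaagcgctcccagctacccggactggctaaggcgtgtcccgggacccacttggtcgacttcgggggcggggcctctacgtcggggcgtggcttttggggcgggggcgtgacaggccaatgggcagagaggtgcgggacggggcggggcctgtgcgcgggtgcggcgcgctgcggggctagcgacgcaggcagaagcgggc

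**Figure D1:**
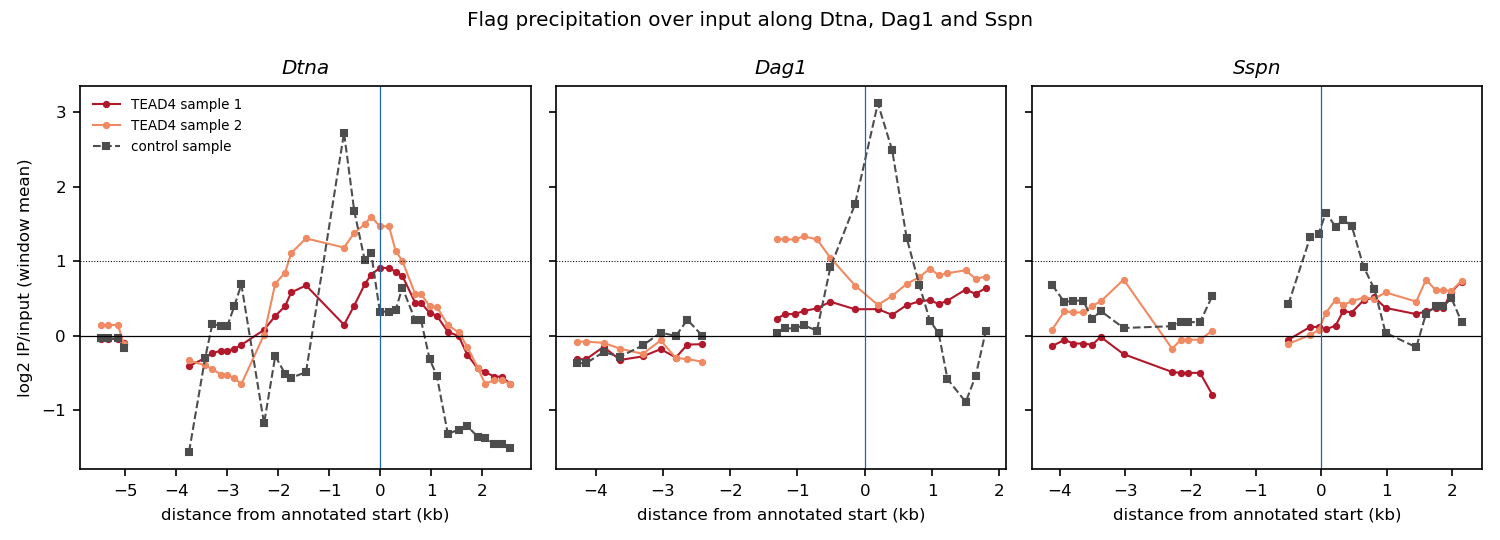
Window means of log2 IP/input (vertical axis) against distance from the annotated start in kb (horizontal axis) for Dtna, Dag1 and Sspn; red and orange circles are the TEAD4 samples, dark squares the control, the dotted line marks 2-fold over input, and lines break where probes are over 1 kb apart. In Dtna both TEAD4 samples form a hill over the start that reaches 0.91 and 1.47 at -9 bp, whereas the control in Dag1 peaks at 3.12 just inside the gene.

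Dtna encodes alpha-dystrobrevin, which binds dystrophin and the syntrophins on the cytoplasmic side. It had the highest TEAD4 values of the members. Its 37 probes on chromosome 18 ran from -5474 to 2547 bp, with 11 within 1000 bp of the start. The start-site value was 0.60 and 1.06 in the TEAD4 samples, 0.83 ± 0.32 (SD, n = 2), higher than in 97.6% of genes, and 0.82 in the control. The control lay between the TEAD4 samples, so the groups overlapped there. It also did so with loess (0.67 against 0.61 and 1.07) and under the probe filters. With normexp it lay below both (0.10 against 0.42 and 0.89), as with a common deviation (0.36 against 0.91 and 1.57). The same held for uncentred ratios (0.26 against 0.61 and 1.05) and for probes within 500 bp (0.32 against 0.91 and 1.47).

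The TEAD4 profile of Dtna was a hill centred on the start. The top window, at -179 bp (chromosome 18, bases 23557885 to 23558749, 6 probes), measured 0.82 and 1.60, 1.21 ± 0.55 (SD, n = 2), and the control 1.11. The window at -9 bp had the highest values that both samples reached, 0.91 and 1.47, with 0.32 in the control. There the TEAD4 samples lay above the control, and TEAD4 was higher than input (limma adjusted p = 0.000538) and than the control (difference 0.87, SE 0.28, limma adjusted p = 0.0225).

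The single probes in and beside that window differed sharply in the control. The probe at -179 bp measured 1.18 and 1.97 in TEAD4 and -1.49 in the control, and the probe at -9 bp measured 1.53 and 1.88 in TEAD4 and -0.86 in the control. These were 2 of the 3 member probes at least 2-fold over input in both TEAD4 samples, and the third, in Sspn, was also high in the control. Farther out the control reached 3.42 for the probe at -510 bp, outside that window, where TEAD4 measured -0.21 and 0.97. It reached 3.35 for the probe at 298 bp, where TEAD4 measured 0.81 and 1.63. The probes nearer the pair, at -307 and 171 bp, measured 1.91 and 0.31 in the control. The probe at 432 bp measured -1.28 in the control. From -510 to 298 bp single probes thus ranged from -0.21 to 1.97 in the TEAD4 samples and from -1.49 to 3.42 in the control.

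Dtna also had the most windows higher than the control, 18 of 36 (50%), and 3 lower. Upstream, at -1456 bp, TEAD4 measured 0.67 and 1.31 and the control -0.49, and TEAD4 was higher than both input (limma adjusted p = 0.00226) and control (difference 1.48, SE 0.29, limma adjusted p = 0.000875). At -711 bp the order was the opposite, with 0.15 and 1.18 in TEAD4 and 2.72 in the control (difference -2.06, SE 0.35, limma adjusted p = 0.000235). Downstream, at 2547 bp, TEAD4 measured -0.64 and -0.64 and the control -1.50, so that TEAD4 was lower than input and yet higher than the control. The count of 18 was 17 under loess, 3 with normexp and 0 with a common deviation. Taken alone, sample 2 put 10 Dtna windows at 2-fold over input and sample 1 put 0. With 250 bp windows the top window of Dtna, at -9 bp, measured 1.23 and 1.81 in TEAD4 and -0.68 in the control. At that width 3 Dtna windows were 2-fold over input in both TEAD4 samples, as 6.68% of genes had. Of these, 2 were also 2-fold over the control, as 3.51% of genes had.

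The transmembrane members differed among themselves. Sspn encodes sarcospan, a small protein with 4 membrane passes that binds the sarcoglycans. Its 30 probes on chromosome 6 ran from -4643 to 2149 bp. The start-site value was 0.24 and 0.19 in TEAD4, 0.22 ± 0.03 (SD, n = 2), and 0.88 in the control, which was the high sample and stood near the median of all genes in the control, 0.90.

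In Sspn the windows above input lay at the downstream edge of the tiling. The top window, at 2149 bp (chromosome 6, bases 145893035 to 145893480, 4 probes), measured 0.73 and 0.74, 0.73 ± 0.01 (SD, n = 2), and 0.19 in the control. As window means the TEAD4 samples nearly coincided and lay above the control. TEAD4 was higher than input (limma adjusted p = 0.012) and its difference from the control did not pass the threshold (0.54, SE 0.28, limma adjusted p = 0.13). The largest probe behind it, at 1995 bp, measured 1.21 and 1.25 in TEAD4 and 1.38 in the control, so it was high in all 3 samples. The control's lower mean came from the probe at 1756 bp, with 0.48 and 1.08 in TEAD4 and -2.19 in the control. At 1872 bp TEAD4 measured 0.64 and 0.72 and the control 0.66. At 2149 bp the values were 0.58 and -0.11 in TEAD4 and 0.89 in the control, so single probes of the duplicates did not coincide. Over the start, at 73 bp, TEAD4 measured 0.09 and 0.31 and the control 1.65 (difference -1.45, SE 0.29, limma adjusted p = 0.000927). That was the control's maximum in Sspn.

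The promoters of Sspn are shown because they were the only ones with a GGAATG match among the promoters searched of members with probes, Dtna's not being among them. The RefSeq table gives 2 starts, 2249 bases apart (GRCm38.p6, chr6:145931623-145931922 and chr6:145933872-145934171, both plus strand). Capitals mark CATTCC, the reverse complement of GGAATG, which is the core of the MCAT element, and its first base lies at -209 from the first start and at -113 from the other. Which of them the array's distances run from is not known here.
Sspn, first start: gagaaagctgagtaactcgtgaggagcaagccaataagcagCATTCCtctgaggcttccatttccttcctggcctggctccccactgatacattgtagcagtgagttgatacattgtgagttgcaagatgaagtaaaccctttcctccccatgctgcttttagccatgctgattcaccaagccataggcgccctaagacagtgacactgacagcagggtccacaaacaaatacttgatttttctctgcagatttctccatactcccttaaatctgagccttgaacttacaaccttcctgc
Sspn, second start: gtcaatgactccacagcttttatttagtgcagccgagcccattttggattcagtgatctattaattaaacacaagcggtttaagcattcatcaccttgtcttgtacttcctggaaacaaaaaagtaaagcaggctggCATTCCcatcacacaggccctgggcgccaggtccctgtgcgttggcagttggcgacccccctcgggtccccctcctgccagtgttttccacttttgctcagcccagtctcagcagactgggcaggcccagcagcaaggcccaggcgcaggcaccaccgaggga

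The search of the members' RefSeq promoters left out chromosome 18, on which Dtna lies. It therefore covered 7 of the 8 members, with 10 promoters of 300 bases. Chromosome 18 was not left out of the shares of all promoters. GGAATG on either strand occurred in 3 of them, both of Sspn and the 1 of Sgcd, and in 14.7% of all 32851 promoters. CAGCTG, an E-box form bound by myogenic factors and its own reverse complement, occurred in 0 of the 10 and in 16.3% of all promoters. The matches are a description of these letters in these windows.

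Sgcb encodes beta-sarcoglycan, a transmembrane subunit found in both the muscle and the smooth muscle form of the sarcoglycan subcomplex. It had the most probes of the members, 78 on chromosome 5 from -9811 to 14921 bp and 76 windows. The start-site value was 0.06 and -0.12 in TEAD4, -0.03 ± 0.13 (SD, n = 2), and 0.46 in the control, which was the high sample. The TEAD4 mean exceeded that of 27.8% of genes.

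No window of Sgcb was higher than input. The highest, at 10596 bp, measured 0.26 and 0.44 in TEAD4, 0.35 ± 0.13 (SD, n = 2), and -0.05 in the control, a top window above that of 43.7% of genes although it was the highest of 76. The lowest, at -5990 bp (chromosome 5, bases 73932530 to 73933116, 4 probes), measured -0.67 and -1.27 in TEAD4 and -0.64 in the control (limma adjusted p = 0.00425 against input). All samples were low there, and the difference of TEAD4 from the control did not pass the threshold (-0.33, SE 0.31, limma adjusted p = 0.404).

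Sgcb had the largest share of windows below the control among the members. Of its windows, 40 of 76 (52.6%) were lower in TEAD4 than in the control and 1 was higher, and the control itself exceeded input 2-fold in 28 (36.8%), against 26.4% of all windows. The largest gap was at 1226 bp, with -0.12 and 0.05 in TEAD4 and 3.103 in the control (limma adjusted p = 7.58e-06 for the gene). Under loess 34 windows were lower and 6 higher than the control, with normexp 1 and 0, and with a common deviation 0 and 0. Of the 78 probes, 3 had a surrogate IP signal in the control and 0 in the TEAD4 samples. Dag1 and Sspn had larger shares in the control, 3 of 28 and 3 of 30 probes.

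Sgca encodes alpha-sarcoglycan, the subunit specific to striated muscle. Its 15 probes on chromosome 11 formed 3 short groups, from -9837 to -9429 bp, from 6488 to 7747 bp and from 13187 to 14139 bp, none of them near the start, and 3 of them were shared with Ppp1r9b. The top window, at 6624 bp, measured 0.08 and 0.48 in TEAD4, 0.28 ± 0.28 (SD, n = 2), and 0.26 in the control. The control lay between the TEAD4 samples and the difference was within its error (0.02, SE 0.27). At 13187 bp TEAD4 measured -0.08 and -0.20 and the control 1.01 (difference -1.15, SE 0.26, limma adjusted p = 0.00214), 1 of 3 windows lower than the control, and no window was higher.

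**Figure D2:**
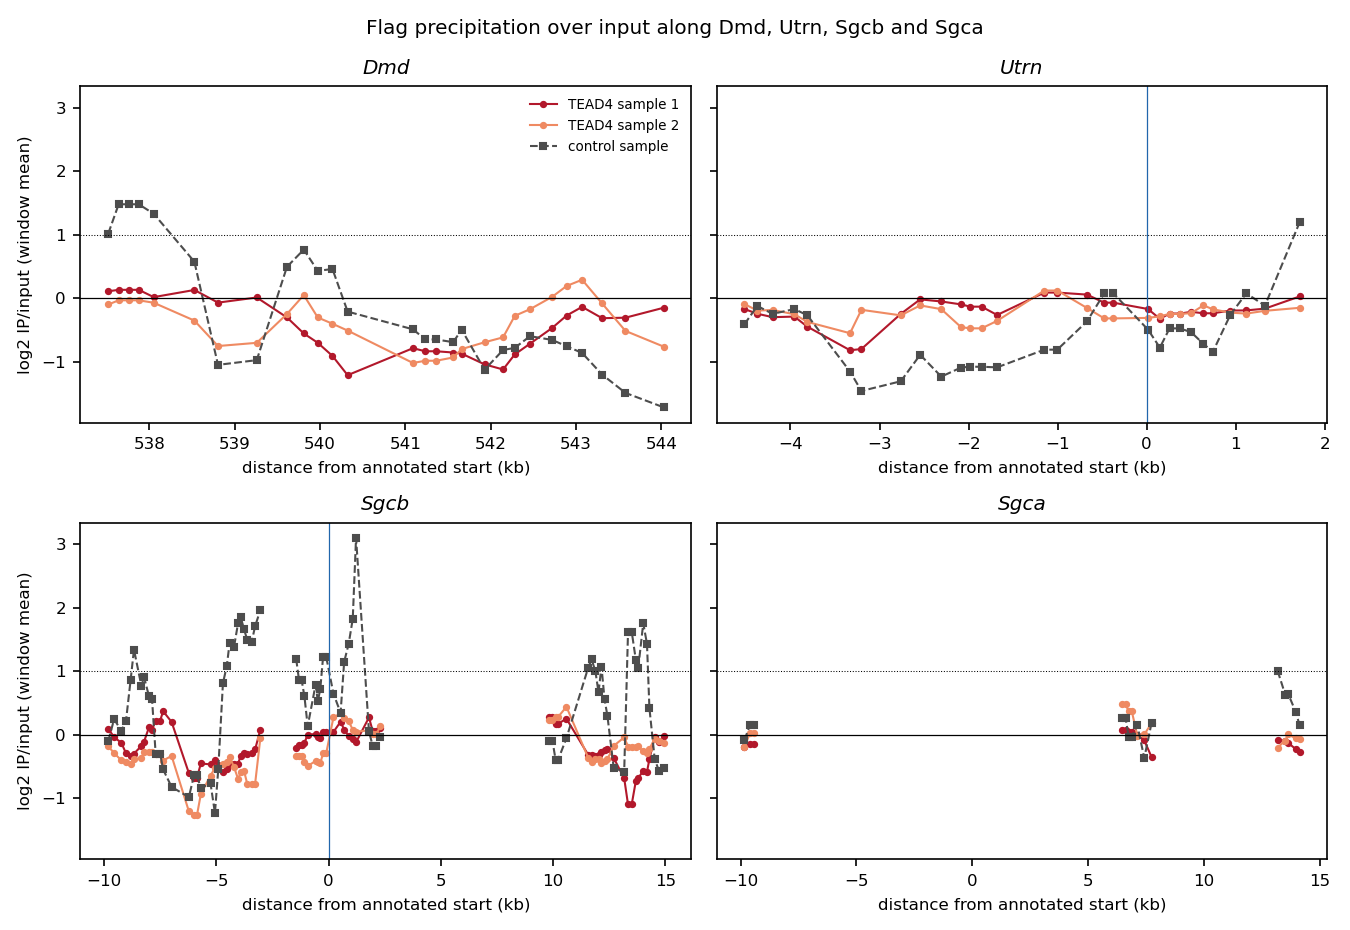
Window means of log2 IP/input (vertical axis) against distance from the annotated start in kb (horizontal axis, a different range in each panel) for Dmd, Utrn, Sgcb and Sgca; red and orange circles are the TEAD4 samples, dark squares the control, and the dotted line marks 2-fold over input. The TEAD4 samples stay below 2-fold in every window, the control passes it in 28 windows of Sgcb, and the panels of Dmd and Sgca hold no probes at the start.

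The start-site values allow the 5 members tiled there to be set side by side, since they are not chosen as maxima. In TEAD4 the order was Dtna, Dag1, Sspn, Sgcb and Utrn. Dtna and Dag1 overlapped, as sample 2 of Dag1 (0.78) exceeded sample 1 of Dtna (0.60), and each neighbouring pair below them was separated in both samples. In the control the order was Dag1, Sspn, Dtna, Sgcb and Utrn. Both TEAD4 samples were above 0 in 3 of 5 members, against 54.8% of all genes, and both were above the control in 1 of 5, Utrn, against 15.6%. The order relative to the control changed with the settings, as given for Dtna above. None was at least 2-fold over input in both TEAD4 samples (0.568% of genes), and 1, Dag1, was so in the control (45.3% of genes). Dag1's control value fell below 2-fold with loess (0.86), normexp (0.55), a common deviation (0.68) and uncentred ratios (0.98). It stayed above under the probe filters (1.48 to 1.54) and within 500 bp (2.69).

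The members' median start-site value was 0.22 in TEAD4 and 0.82 in the control, beside 0.12 and 0.90 over all genes. The median difference, TEAD4 minus control, was -0.49 for the members and -0.72 for all genes. Start-site values are given as a description: no model was fitted to them, and an exact permutation test of 2 samples against 1 cannot give a p below 0.333.

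**Figure D3:**
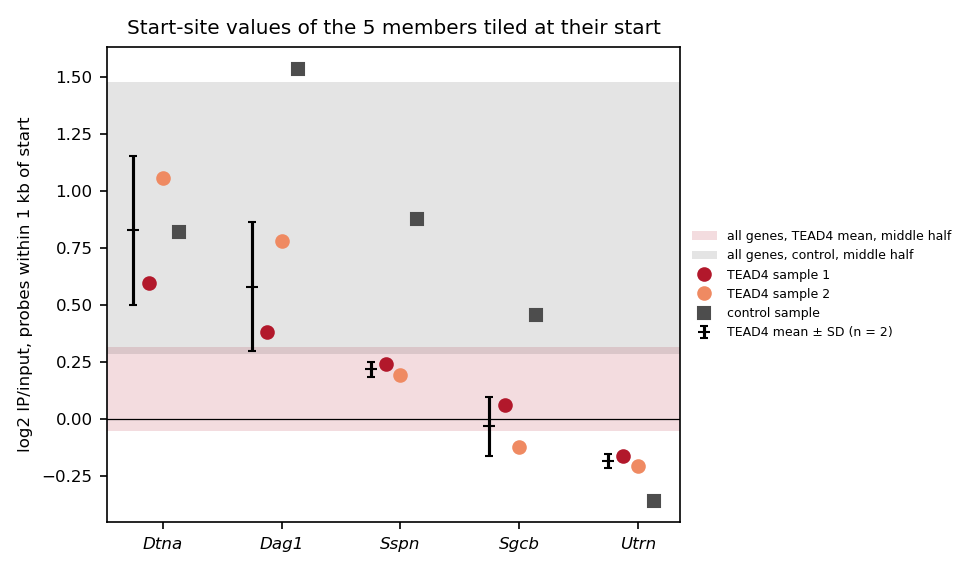
Start-site values (log2 IP/input, mean of probes within 1 kb of the start) of the 5 members tiled there; circles are the TEAD4 samples, squares the control, black bars the TEAD4 mean ± SD (n = 2), and the shaded bands span the middle 50% of all genes in TEAD4 (red) and in the control (grey). Dtna and Dag1 lie above the red band in both TEAD4 samples, and the control square of Dag1 is the highest point at 1.54.

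The duplicates followed one another to different degrees. Across a member's probes, which share arrays and neighbouring fragments, Pearson's r between the TEAD4 samples was 0.76 in Dtna over 37 probes, 0.70 in Sgca over 15, 0.65 in Dag1 over 28, 0.47 in Sgcb over 78, 0.41 in Dmd over 29, 0.33 in Utrn over 34 and 0.17 in Sspn over 30. Across windows, which average neighbouring probes, r was 0.93 in Dtna, 0.82 in Dag1, 0.72 in Sspn, 0.62 in Sgca, 0.51 in Sgcb, 0.49 in Dmd and 0.45 in Utrn. Sspn was thus lowest over single probes but not over windows. At -1669 bp, for example, Sspn measured -0.79 in sample 1 and 0.07 in sample 2.

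By distance over the 3 samples' log2 values in each gene's own top window, the genes most like Dtna were Slc25a44 (Euclidean distance 0.0656), Sh3gl1 (0.0997) and Tbc1d17 (0.128). Slc25a44 measured 0.76 and 1.60 in TEAD4 and 1.10 in the control. The genes most like Dmd, the member of lowest top window, were Cstf2 (0.0588), 5730409E04Rik (0.0612) and Pcdhb17 (0.0703).

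Of 39 other genes of the complex and its assembly, 36 had windows; Nos1, Sntg1 and Hspg2 had none. By limma 14 were higher than input and 1 lower (Sgcz), against 23.9% and 11.8% of all genes. Against the control 4 were higher and 29 lower, where 12.4% and 81% of all genes were. Their median top window was 0.57, beside 0.35 in the members and 0.40 over all genes. By role, 6 of 10 membrane and cytoskeletal partners were called above input, 5 of 15 genes of dystroglycan glycosylation, 2 of 5 cytoplasmic genes, 1 of 3 other sarcoglycans and 0 of 3 extracellular ligands.

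At least 2-fold over input in both TEAD4 samples were 3 of the 36 (8.33%), and none of these was also 2-fold above the control. Dysf, which encodes the membrane repair protein dysferlin, measured 1.39 and 1.26 in its top window at -3988 bp, and the control 0.56. Cav3, the muscle caveolin, measured 1.06 and 1.24 at 90 bp, and the control 0.86. In these top windows of Dysf and Cav3 both TEAD4 samples lay above the control. By the window of lowest p, Dysf as a gene was lower than the control (difference -1.54, limma adjusted p = 0.000984). Cav3 was higher (difference 1.38, limma adjusted p = 0.0107). Plec, the cytoskeletal linker plectin, measured 1.23 and 1.12 and the control 1.52. In Plec the control was the highest sample. Plec passed with 1 of its 145 windows, the most of any gene, where the median gene had 25. Dysf passed with 3 of 26 and Cav3 with 2 of 27.

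**Figure D4:**
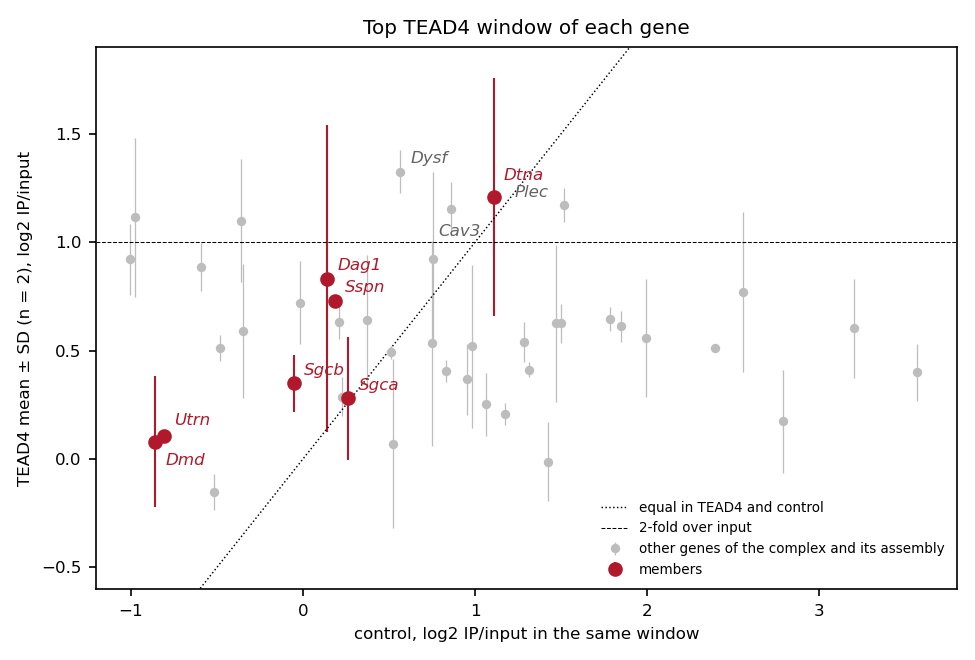
TEAD4 mean log2 IP/input ± SD (n = 2, vertical axis) in each gene's top TEAD4 window against the control in the same window (horizontal axis); red points are the 7 members, grey points the 36 other genes, the dashed line marks 2-fold over input and the dotted line equal values. Only Dtna among the members has a mean above the dashed line, at 1.21, and at this window width it lies close to the line of equal values.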

How the data were processed

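The 6 arrays were read as deposited scanner text. Per the file headers, the authors obtained the intensity values with Feature Extraction 9.5.3.1 from Agilent, which subtracts background and normalises dyes. The authors' value table held a log10 ratio per probe, equal to the scanner's own (largest difference 0). The log2 of Cy5 over Cy3 processed intensity was centred on each array's median. Probes marked non-uniform on any array, or without a position, were left out.

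Window means were fitted per design with limma 3.58.1 in R 4.3.3 (lmFit, eBayes; 2 TEAD4 samples and 1 control, 1 residual degree of freedom). In eBayes the spread pooled over all windows carried 13.4 and 13.9 degrees of freedom on the 2 designs, against 1 from a window's own duplicates. The control, being single, was taken to have the spread of the duplicates. A gene's p was Simes' over its windows, adjusted by Benjamini-Hochberg over all genes, two-sided threshold 0.05, and its direction that of its window of lowest p. P-values per window, adjusted over all windows, were added after the gene results were seen. Symbols were updated through RefSeq: 16453 of 16839 by accession, 214 by symbol, 115 by synonym, and 57 kept the file's name. The fit was tested on simulated data in which all samples had the same spread and probes varied independently. That test therefore does not cover the control's wider spread.

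The members and gene lists were chosen with earlier results of these data known. Named were all members, other listed genes at least 2-fold over input in both TEAD4 samples, and the 3 genes nearest the members of highest and lowest top window. Some listed genes are not reported here. Motifs were searched in the members' RefSeq promoters, those on chromosome 18 being left out. Alternatives were background correction, loess, scale, window width, least probes, fold threshold, start-site span, probe filters, the authors' log10 ratios and leaving out each TEAD4 sample. The number of arrays limits the precision.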

Additional observations from a re-analysis of the deposited data

How the results depend on the processing

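No paired analysis was possible because the groups share fewer than 2 replicate numbers. Shares in brackets are those of all genes under the same setting. The number of members higher than the control, 0 (12.4%), became 5 with loess (26.5%) and 1 with 250 bp windows (11.7%). It became 3 with 1000 bp windows (15%) and 3 with at least 5 probes (12.9%). With probes whose IP signal was well above background on every array, an alternative chosen after seeing the data, it became 2 (13.6%). The number lower than the control, 7 (81%), became 2 with loess (64.5%), 0 with normexp (4.87%) and 0 with a common median absolute deviation (0.176%). It became 4 with 1000 bp windows (75.4%) and 4 with at least 5 probes (75.5%). The number lower than input, 3 (11.8%), became 0 with normexp (0.291%) and 1 with at least 5 probes (10.7%). The number higher than input stayed within 2 to 3 (12.4% to 33.2%). The count of 0 members 2-fold over input in both TEAD4 samples (5.2%) became 2 with a common deviation (15.3%), 1 with 250 bp windows (6.68%) and 3 at 1.5-fold (20.2%). Also requiring the same fold over the control, 0 (2.56%) became 1 (9.04%), 1 (3.51%) and 2 (9.12%). With TEAD4 sample 1 left out, both counts were 2 (15.5% and 8.27%), and with sample 2 left out both were 0 (8.06% and 3.88%). The limma calls were not run then, since no residual degree of freedom is left. The 7 members 2-fold over input in the control (85.6%) became 2 with normexp (19%), 3 with loess (73.4%), 3 with a common deviation (46.4%) and 4 at 3-fold (69.6%). With the authors' ratios left uncentred, Dmd, Sgca and Utrn had no such window. Sgcb then had 8, against 28 when centred. The share of all genes was not taken for that setting. Member windows higher than the control, 37 (11.6% of all windows), became 3 with normexp (0.421% of all windows) and 0 with a common deviation (0.153% of all windows). The cause was not tested for any of these changes. Of 77 top-window values under alternatives 62 moved by less than the SD between the duplicates, and of 50 start-site values 40 did. These 2 counts are no measure of stability, because a wider gap between the duplicates makes the rule easier to meet. Start-site values with 1 duplicate left out meet it by construction. Dtna's top window ranged from 0.91 to 1.81, Dag1's from 0.64 to 1.33 and Sspn's from 0.54 to 1.07. Utrn's start-site value turned to 0.03 with normexp. The weak IP signal of the control limits every comparison with it.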
